A study of Mus musculus with 12 samples.

Results

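The nuclear and mitochondrially encoded subunits of the oxidative phosphorylation system were followed across uninjured and injured mouse spinal cord. Members were chosen by gene symbol alone: all symbols of the authors' FPKM table that begin as the subunits of NADH dehydrogenase (Nduf), succinate dehydrogenase (Sdha to Sdhd), the cytochrome bc1 complex (Uqcr), cytochrome c oxidase (Cox4 to Cox8), ATP synthase (Atp5) or the mitochondrial genome's coding genes (mt-) do. This gave 98 of 37839 entries, 85 nuclear and 13 mitochondrially encoded, and 97 of them were among the 16058 genes tested. The exception, Cox8c, was listed at 0 in all 12 libraries. Of the 85 nuclear symbols, 72 were assigned here to subunits of complexes I to V, 8 to tissue isoforms or relatives of complex IV subunits, and 5 to related genes or a pseudogene that are not regular subunits. Cox4i1 was not analysed here, and the symbols Cyc1 and Ndufab1 do not fall under the naming rule.

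The study sequenced RNA of whole spinal cord tissue from 12 mice, 4 per group. All mice were adults over 8 weeks old on a C57bl/6J background and were Glast-CreERT2 x R26R-YFP x Rasless. In these mice a tamoxifen-dependent Cre recombinase is driven by the Glast promoter, which is used to reach type A pericytes, and recombination removes Ras function from the recombined cells and marks them with YFP. Uninjured controls (labelled as vehicle injected, 14 days) gave a cord segment. Vehicle lesions (SCI Veh) and tamoxifen lesions (SCI Tam) were injury sites taken 14 days after a high thoracic dorsal hemisection. Tamoxifen mice had received 2 mg a day for 5 days and then 7 clearing days before surgery, and vehicle mice the solvent only. The series describes the pericyte-derived scar as dense in vehicle and attenuated in tamoxifen lesions. Libraries are named by mouse number: 376, 377, 385 and 467 (uninjured), 402, 428, 429 and 457 (vehicle), and 452, 513, 549 and 564 (tamoxifen). Values in the 4 libraries of a group are given in that order. In bulk tissue, fewer cells of a type and less RNA per cell cannot be told apart.

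Oxidative phosphorylation takes place in the inner mitochondrial membrane. Complexes I and II pass electrons from NADH and succinate to ubiquinone, complex III passes them to cytochrome c, and complex IV to oxygen. Complexes I, III and IV pump protons, and complex V, the ATP synthase, uses the gradient to make ATP. Complexes I, III, IV and V are built from subunits of both genomes, whereas all subunits of complex II are nuclear. Neurons depend heavily on this pathway, and several complex IV subunits have isoforms typical of heart and skeletal muscle.

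The libraries differed in more than their group. Total counts ran from 7967970 to 12581324 per library. The sample names in the labels run from 1 to 20 for 9 libraries and from 106 to 108 for tamoxifen libraries 513, 549 and 564, called the high series below, so 452 was the tamoxifen library that shared the sample name series of all controls. By Xist and Y-linked transcripts the tamoxifen mice were female, as were 3 of 4 uninjured mice and 1 of 4 vehicle mice. The 14 skeletal muscle markers found in the FPKM table, of 15 listed, summed to 8.89 to 558 FPKM in uninjured, 17.8 to 587 in vehicle and 9.66 to 24.1 in tamoxifen libraries, with the high values in 377, 385, 402, 429 and 457. The 11 neuron markers found, of 12 listed, summed to 2612 to 2791 FPKM in uninjured, 1650 to 2025 in vehicle and 1950 to 2357 in tamoxifen libraries. The 10 macrophage and microglia markers summed to 76.2 to 95.8, 578 to 1094 and 407 to 776 FPKM, and the 6 fibroblast markers to 32 to 113, 544 to 1491 and 119 to 226 FPKM, in the same order of groups. The 7 astrocyte markers summed to 1756 to 1954, 2502 to 3171 and 2823 to 3919.6 FPKM, and the 8 oligodendrocyte markers to 7249.9 to 9211, 7181 to 8934 and 8808 to 9245 FPKM. The neuronal markers of the list, Snap25 and Rbfox3 among them, were present in every library. The part of these features in the results below was not tested beyond the fits named.

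Promoter sequences are shown as a description of the nuclear members, and a link between them and the members' changes was not tested. Of the 85 nuclear members, 69 had 1 or more promoter windows in RefSeq (GRCm38.p6), 75 windows in all of 300 bases each, from 250 before to 50 after the transcript start. Nuclear subunit genes are known targets of NRF1, of ETS factors such as GABP (also called NRF2) and of YY1, so 1 exact word was searched for each on both strands. The NRF1 word, a palindrome printed in capitals in the first stretches below, was in 5 of the 75 windows (6.67%) against 0.971% of all 32851 windows of the same length, CCGGAAGT (ETS) in 5 (6.67%) against 3.89%, and AAGATGGCG (YY1) in 9 (12%) against 1.4%. No window held 2 of the 3 words, and 18 of the 69 genes had at least 1. The 9 windows with the YY1 word hold 8 distinct sites, since 1 site in Atp5sl lies in 2 overlapping windows. In 7 of the windows the word began between bases 23 and 36 of the transcript, and this word contains ATG, so a match there may also be a start codon. A match is a description of the letters, not evidence of binding. Each stretch below is the 120 bases before the transcript start, 5′ to 3′ on the gene's strand, with the matched word in capitals. The NRF1 word is shown in Atp5g2 at chr15:102671048-102671167 (minus strand), Ndufa11 at chr17:56717642-56717761 (plus strand) and Atp5k at chr5:108434400-108434519 (minus strand).
Atp5g2: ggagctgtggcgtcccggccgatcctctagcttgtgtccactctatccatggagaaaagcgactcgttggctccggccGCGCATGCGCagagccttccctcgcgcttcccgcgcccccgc
Ndufa11: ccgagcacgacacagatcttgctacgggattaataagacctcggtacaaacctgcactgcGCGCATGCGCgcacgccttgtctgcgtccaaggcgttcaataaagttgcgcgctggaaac
Atp5k: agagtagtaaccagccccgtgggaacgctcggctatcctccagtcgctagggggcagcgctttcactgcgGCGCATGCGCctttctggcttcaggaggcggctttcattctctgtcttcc
The ETS word is shown in Atp5h at chr11:115419920-115420039 (minus strand) and Uqcr11 at chr10:80406822-80406941 (minus strand), and the YY1 word upstream of the start in Atp5j at chr16:84834977-84835096 (minus strand).
Atp5h: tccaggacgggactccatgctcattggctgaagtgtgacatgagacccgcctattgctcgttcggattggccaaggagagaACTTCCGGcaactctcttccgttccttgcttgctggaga
Uqcr11: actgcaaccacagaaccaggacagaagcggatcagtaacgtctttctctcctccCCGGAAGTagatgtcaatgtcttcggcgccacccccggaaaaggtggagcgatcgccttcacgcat
Atp5j: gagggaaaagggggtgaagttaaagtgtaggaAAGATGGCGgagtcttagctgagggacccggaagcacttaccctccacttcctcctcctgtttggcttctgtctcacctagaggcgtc
The YY1 word just after the start is shown with its near surroundings for 3 complex I genes, Ndufs7 at chr10:80249463-80249492 (plus strand), Ndufa9 at chr6:126849096-126849125 (minus strand) and Ndufs4 at chr13:114388045-114388069 (minus strand).
Ndufs7: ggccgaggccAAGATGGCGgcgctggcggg
Ndufa9: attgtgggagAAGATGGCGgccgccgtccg
Ndufs4: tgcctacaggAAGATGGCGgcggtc

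By FPKM, the mitochondrially encoded members were the most abundant. FPKM are read fragments divided by transcript length and by depth, and are used here to compare levels of different genes. For some mitochondrially encoded genes the deposited counts do not match such levels. Outside the high series, mt-Atp8 had 0 to 4 counts, mt-Nd4l 2 to 9 and mt-Nd3 2 to 17. There mt-Co2 had 25 to 76, mt-Co3 29 to 57 and mt-Atp6 25 to 85. The levels of these genes, which enter the sums below, are therefore uncertain. The 13 mitochondrially encoded genes summed to 31698 ± 2736 FPKM (SD, n = 4) in uninjured cord, 30121 ± 1880 in vehicle and 36198 ± 1354 in tamoxifen lesions, and the 84 tested nuclear members to 9764 ± 671, 8733 ± 483 and 10790.4 ± 1297. The ratio of the sums was 3.25 ± 0.145, 3.45 ± 0.0593 and 3.39 ± 0.423. In the tamoxifen group library 452 had a ratio of 3.98, while 513 and 564 were both at 3.08 to 3.09 and 549 at 3.41. Among nuclear members, Atp5b, the catalytic β subunit of complex V, had the highest mean (753 FPKM over all libraries), followed by Ndufa4 (386), a former complex I protein now assigned to complex IV, and Cox6b1 (376). At the low end were the isoforms Cox7b2 (1.42) and Cox4i2 (2.86).

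**Figure D1:**
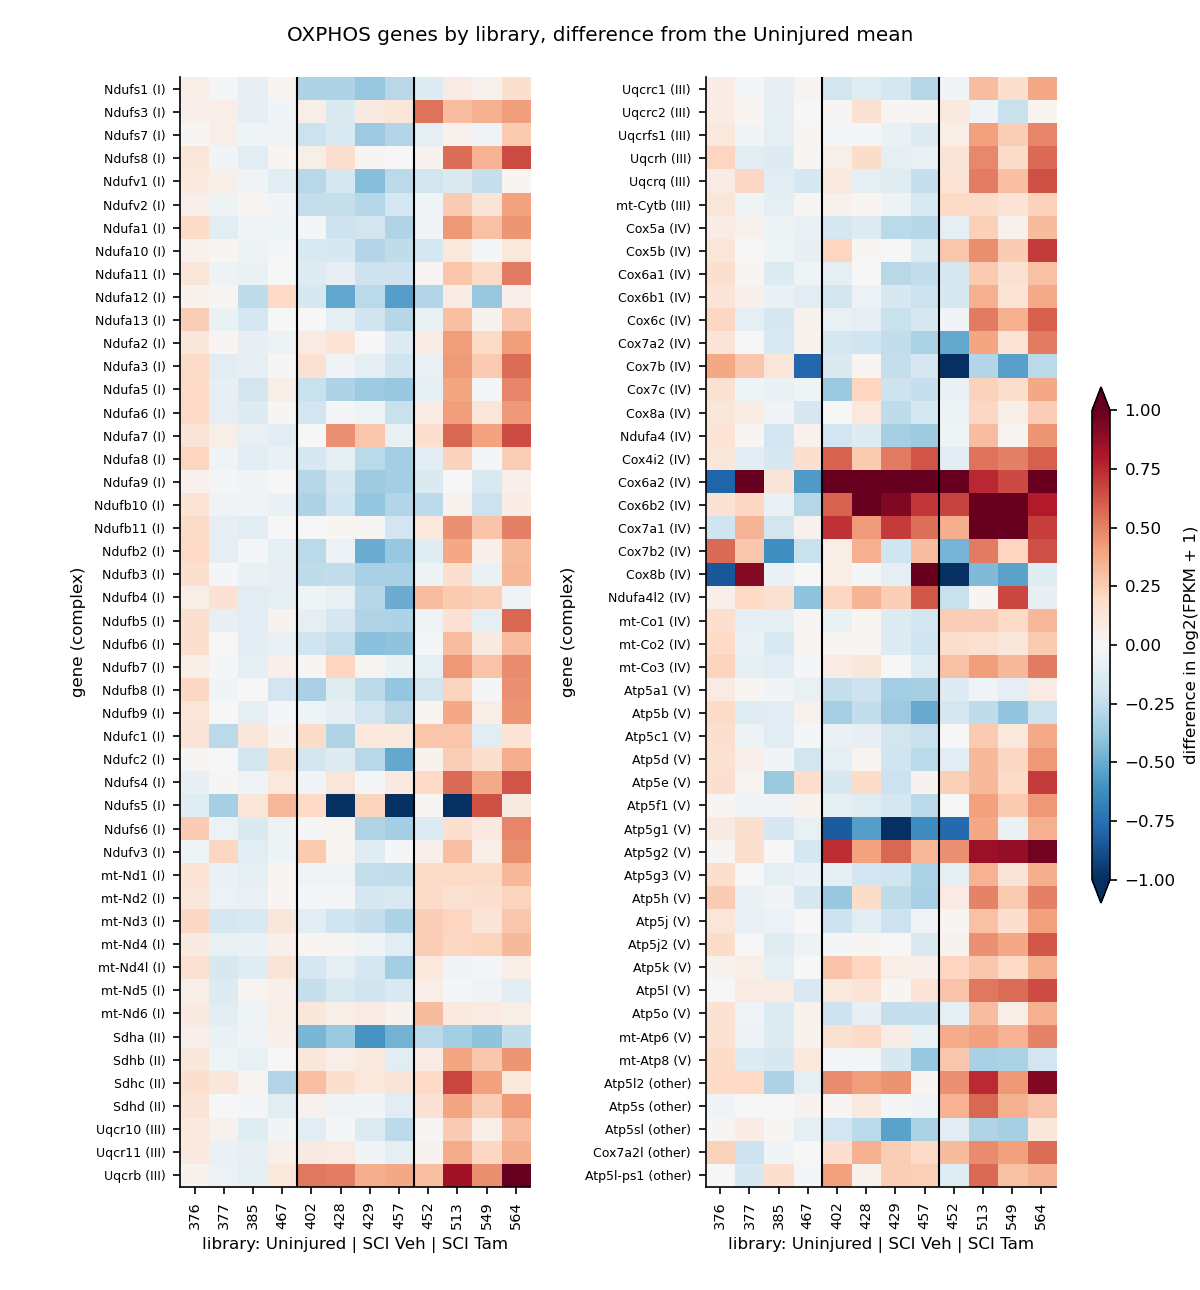
Each row is 1 of 96 tested genes (its complex in parentheses) and each column 1 library; colour gives the difference in log2(FPKM + 1) from the mean of the 4 uninjured libraries, with the scale ending at 1 in both directions. Many nuclear rows are blue in the vehicle lesions and red in tamoxifen libraries 513, 549 and 564, with 452 between them, while Sdha is blue in all 8 lesion libraries.

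Vehicle lesions were compared with uninjured cord first, which shows how the subunit genes stood 14 days after injury. Of the 97 tested members, 18 fell and 6 rose (limma on log2(FPKM + 1), Benjamini-Hochberg adjusted p under 0.05). Over all genes tested, 23.6% were called lower and 25.2% higher, so the share of members that fell was near the background and the share that rose was below it. The median change was -0.13 on the log2 scale over members and 0.02 over all genes, and 65 of 97 members had a negative estimate. All libraries of vehicle lesions lay below all uninjured libraries for 22 members (background 23.3%) and above them for 7 (background 24%).

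Complex I held most of the members that fell, 12 of its 35 nuclear subunits with none higher at this threshold. Counts by complex in this comparison are to be read against the 23.6% of all genes called lower and the 25.2% called higher. The conserved core subunits carry the flavin and the iron-sulphur clusters. Ndufs1, the large iron-sulphur subunit, was at 62.9, 59.5, 56.8 and 61.2 FPKM in the uninjured libraries, 48.4, 48.4, 46.1 and 49.5 in the vehicle lesions and 54.7, 63.8, 61.9 and 67.1 in the tamoxifen lesions. The 4 vehicle libraries lay together below every uninjured library (log2 -0.32 ± 0.0654 SE, limma adjusted p = 0.00171). Ndufv1, which binds NADH and FMN, was at 116, 113, 106 and 100.02 FPKM in the uninjured libraries, 89.4, 95.9, 80.6 and 89.9 in the vehicle lesions and 95.6, 98.2, 92.4 and 109.9 in the tamoxifen lesions, so that vehicle lesions again lay wholly below uninjured cord (log2 -0.29 ± 0.0743 SE, limma adjusted p = 0.0069). Ndufv2, its iron-sulphur partner, fell by 0.23 on the log2 scale (adjusted p = 0.0306) and Ndufs7 by 0.26 (adjusted p = 0.0153). Ndufs3 (log2 0.03, adjusted p = 0.756) and Ndufs8 (log2 0.06, adjusted p = 0.695) did not pass. Of 28 accessory subunits, which surround the core, 7 fell, a share near that of all genes (23.6%). Ndufa9, a subunit beside the ubiquinone site, was at 96.6, 92.6, 92 and 93.8 FPKM in the uninjured libraries, 76.8, 83.8, 72.9 and 73.9 in the vehicle lesions and 84.8, 93.3, 84.3 and 97.3 in the tamoxifen lesions (log2 -0.29 ± 0.0635 SE, limma adjusted p = 0.00277). The 4 vehicle values lay below all 8 others. Ndufb6, of the membrane arm, was at 105, 93.6, 86.9 and 88.7 FPKM in the uninjured libraries, 81.4, 78.8, 69.7 and 70.4 in the vehicle lesions and 92.2, 116, 99.2 and 116 in the tamoxifen lesions, also with vehicle lesions below all other libraries (log2 -0.31 ± 0.091 SE, limma adjusted p = 0.0127). The other accessory subunits that fell were Ndufa10, Ndufa12, Ndufb3, Ndufb10 and Ndufc2, with changes from -0.38 to -0.21. Ndufa3, a small membrane subunit and the complex I gene of highest nuclear level, did not pass the test (log2 -0.04, adjusted p = 0.811), nor did Ndufs4 (log2 0.04, adjusted p = 0.709).

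In complex II the 4 subunits differed among themselves. Sdha (ENSMUSG00000021577), the flavoprotein that oxidises succinate, was at 223, 205, 209 and 222 FPKM in the uninjured libraries, 156, 165, 142 and 155 in the vehicle lesions and 178, 168, 162 and 181 in the tamoxifen lesions. Every lesion library lay below every uninjured library (log2 -0.47 ± 0.0615 SE, limma adjusted p = 7.44e-05), the smallest p of all members in this comparison. Sdhb, the iron-sulphur subunit (log2 0.04, adjusted p = 0.698), and the membrane anchors Sdhc (log2 0.17, adjusted p = 0.268) and Sdhd (log2 -0.03, adjusted p = 0.76) did not pass the test. Among the 8 nuclear subunits of complex III, 1 rose and none passed the test in the other direction. Uqcrb, the ubiquinone-binding protein, was at 26.8, 25.1, 24.5 and 28.2 FPKM in the uninjured libraries, 38, 37.6, 33.8 and 34.5 in the vehicle lesions and 32.3, 47.5, 36.3 and 53.3 in the tamoxifen lesions, with both lesion groups wholly above uninjured cord (log2 0.45 ± 0.129 SE, limma adjusted p = 0.0123). Uqcrc1, a core protein, had a lower estimate that did not pass (log2 -0.19, adjusted p = 0.075), although its vehicle libraries lay below all uninjured ones. The Rieske protein Uqcrfs1 (log2 -0.06, adjusted p = 0.609), Uqcrh (log2 0.02, adjusted p = 0.885) and Uqcrq (log2 -0.09, adjusted p = 0.573) had changes close to 0.

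Of the 10 regular nuclear subunits of complex IV, 0 passed limma's test in this comparison, with 2 (Cox5a and Ndufa4) at an unadjusted p under 0.05. By edgeR on the counts both were called lower, and at an FPKM-based estimate of -0.21 and -0.25 they missed the threshold (limma adjusted p = 0.0524 and 0.0753). Cox6a1 (log2 -0.16, adjusted p = 0.241), Cox7a2 (log2 -0.23, adjusted p = 0.288) and Cox8a (log2 -0.08, adjusted p = 0.514), the forms of these subunits found in most tissues, had negative estimates too. The tested isoforms went the other way, with 7 of 7 positive estimates and 3 calls. Cox6a2, the heart and skeletal muscle form of subunit 6A, was at 0.41, 4.8, 1.69 and 0.662 FPKM in the uninjured libraries, 8.38, 4.85, 8.69 and 9.89 in the vehicle lesions and 4.89, 3.14, 2.89 and 3.88 in the tamoxifen lesions. All vehicle libraries lay above all uninjured ones (log2 1.83 ± 0.366 SE, limma adjusted p = 0.0014), and the uninjured library nearest to them, 377, was also the one with the most muscle marker RNA in its group. Vehicle library 428 had low muscle markers (17.8 FPKM summed) and Cox6a2 at 4.85 FPKM. Cox6b2, known from testis, was at 4.8, 5.05, 3.99 and 3.29 FPKM in the uninjured libraries, 6.87, 10.5, 8.92 and 7.55 in the vehicle lesions and 7.35, 11.5, 12.2 and 8.05 in the tamoxifen lesions (log2 0.84 ± 0.173 SE, limma adjusted p = 0.00167), and Cox4i2, a form known from lung and pericytes, was at 2.33, 1.85, 1.76 and 2.46 FPKM in the uninjured libraries, 3.64, 2.7, 3.42 and 3.76 in the vehicle lesions and 1.86, 3.49, 3.36 and 3.67 in the tamoxifen lesions (log2 0.50 ± 0.158 SE, limma adjusted p = 0.0202). The muscle forms Cox7a1 (log2 0.60, adjusted p = 0.0623) and Cox8b (log2 0.25, adjusted p = 0.609) and the Ndufa4 relative Ndufa4l2 (log2 0.35, adjusted p = 0.144) did not pass.

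Complex V held opposite changes among the 3 genes of its c subunit, the ring in the membrane, which encode the same mature protein. Atp5g1 was at 75.8, 79.7, 63.4 and 67.6 FPKM in the uninjured libraries, 39.5, 48.3, 33.8 and 46 in the vehicle lesions and 41.1, 93.3, 67.9 and 91.8 in the tamoxifen lesions, so that every vehicle library lay below every uninjured one (log2 -0.77 ± 0.216 SE, limma adjusted p = 0.0109). Atp5g2 was at 22.8, 25.4, 22.6 and 20.0 FPKM in the uninjured libraries, 38.3, 30.2, 34.2 and 28.7 in the vehicle lesions and 31.5, 41.8, 42.5 and 45.1 in the tamoxifen lesions, and every lesion library lay above every uninjured one (log2 0.51 ± 0.12 SE, limma adjusted p = 0.00385). By edgeR on the counts neither was called. Atp5g3, the most abundant of the 3 in all libraries, did not pass (log2 -0.20, adjusted p = 0.121). The α and β subunits of the F1 head, Atp5a1 and Atp5b, fell. Atp5b was at 982, 794, 798 and 887 FPKM in the uninjured libraries, 684, 726, 670.2 and 607 in the vehicle lesions and 768, 723, 657 and 746 in the tamoxifen lesions, with all 8 lesion libraries below uninjured cord (log2 -0.36 ± 0.0862 SE, limma adjusted p = 0.00425). Atp5a1 was at 341, 326, 317 and 306 FPKM in the uninjured libraries, 273, 279, 253 and 256 in the vehicle lesions and 295, 313, 302 and 342 in the tamoxifen lesions (log2 -0.28 ± 0.0637 SE, limma adjusted p = 0.00307). The other nuclear complex V subunits did not pass the test, with Atp5k closest (log2 0.15, adjusted p = 0.0788). Of the related genes, Cox7a2l, which takes part in joining complexes III and IV, rose (log2 0.24, adjusted p = 0.0386) and Atp5sl fell (log2 -0.33, adjusted p = 0.0185).

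Of the 13 mitochondrially encoded genes, 1 fell and 12 did not pass the test, a share below the 23.6% of all genes called lower. mt-Nd5, a proton-pumping subunit of complex I, was at 1628, 1424, 1589 and 1615 FPKM in the uninjured libraries, 1334, 1402, 1359 and 1402 in the vehicle lesions and 1638, 1549.5, 1527 and 1443 in the tamoxifen lesions (log2 -0.18 ± 0.0681 SE, limma adjusted p = 0.0395). The vehicle libraries lay below all uninjured ones. The median of the 13 changes was -0.09, against -0.14 over the 84 nuclear members. The other estimates ran from -0.21 for mt-Nd3 to 0.09 for mt-Atp6. With a term for sex, 14 members were called lower (21.4% of all genes) and 3 higher (22.6%).

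**Figure D2:**
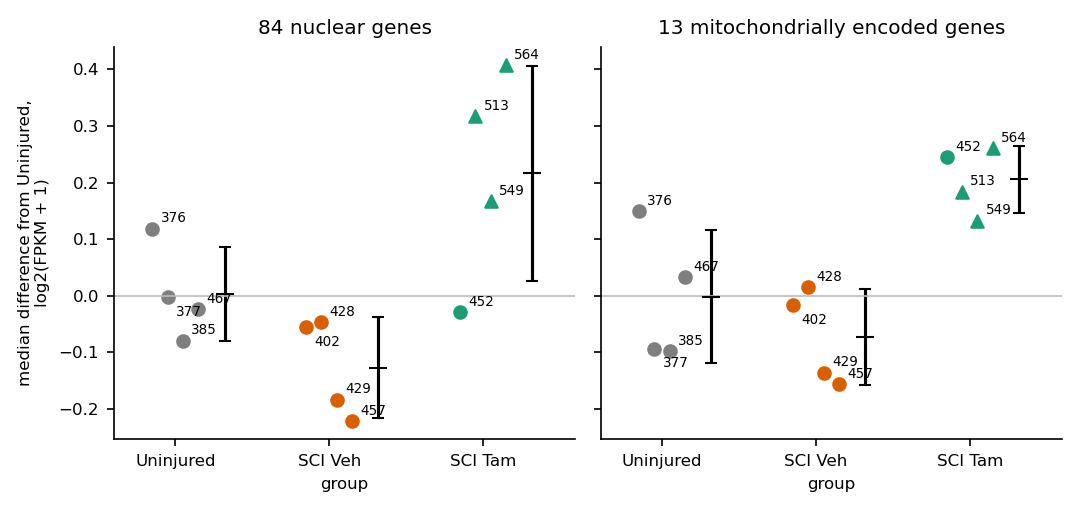
Points are libraries, and the y axis gives the median, over genes, of the difference in log2(FPKM + 1) from the uninjured mean, for the 84 nuclear and the 13 mitochondrially encoded genes. Triangles are the libraries with sample names 106 to 108, and black bars show group mean ± SD (n = 4). For nuclear genes 452 sits at -0.03, near the vehicle libraries 402 and 428, and the 3 triangles at 0.17 to 0.41, while for mitochondrially encoded genes 452 sits at 0.24, among the triangles.

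Tamoxifen lesions were then compared with vehicle lesions, the contrast of attenuated against dense pericyte-derived scarring. This comparison shares the vehicle libraries with the first. Of the 97 members, 43 rose (limma, Benjamini-Hochberg adjusted p under 0.05), against 4.27% of all genes called higher. No member was called lower by limma, edgeR or DESeq2, against 5.09% of all genes in limma and 8.33% in edgeR, and 2 members, Cox8b and Cox6a2, had an unadjusted p under 0.05 in that direction. The median change was 0.32 over members and 0.01 over all genes, with 91 of 97 estimates positive. Marker lists of cell types moved in this comparison too: 7 of 7 astrocyte markers had positive estimates (1 called higher, median 0.24), as did 8 of 8 of oligodendrocytes (0 called by limma and 1 at an unadjusted p under 0.05, median 0.12) and 9 of 11 of neurons (1 called higher, median 0.21). The 10 macrophage and microglia markers were all negative (0 called by limma and 4 at an unadjusted p under 0.05, median -0.43), and 5 of 6 fibroblast markers were called lower (median -2.82). The part of these cell types in the members' change was not tested. For 43 members every tamoxifen library lay above every vehicle library (background 7.55%) and for 2, Cox7b and Cox8b, below (background 7.48%). Of the 3475 tested genes whose annotated transcripts had a median length of 513 to 815 bases, the middle range of the nuclear members, 4.92% were called higher. This median counts short annotated transcripts too (521 bases for Sdha, whose longest has 2900), so these genes are not matched on the length of the main transcript. The risen members were spread over the complexes: 17 of 35 nuclear genes of complex I, 1 of 4 of II, 4 of 8 of III, 4 of 10 of IV, 9 of 15 of V, 7 of 13 mitochondrially encoded genes and Atp5s.

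Fewer or none of these calls were left in the fits below. Lost calls do not show that a change is absent, since with the series and sex terms calls were also lost over all genes. From the main fit to the fit with the series term, the median of the 13 mitochondrially encoded genes went from 0.27 to 0.28. That of the 84 nuclear members went from 0.33 to 0.11. With a term for the series, which rests the contrast on library 452, 0 of 97 members were called higher (0.0747% of all genes) and 0 lower (0.324%), with 13 higher and 4 lower at an unadjusted p under 0.05, and the median change was 0.14. The sex term left 1 call (0.654% of all genes) at a median of 0.32. The muscle score as a covariate left 0 calls, with 44 at an unadjusted p under 0.05, and leaving out library 513 left 4. For the muscle score and the fit without 513 the share over all genes is not given, so these counts cannot be set against it. The change in 452 alone is given beside the calls below, and its nuclear median was 0.11 against 0.39 for the mean of the high series. Library 452 lay above every vehicle library for 51 of 97 members (background 24.7%) and below every one for 10 (background 25.8%). The high series lay above every vehicle library for 67 (background 16.1%). Sample name series and tamoxifen cannot be told apart for the part of the rise that is absent in 452. The part present in 452 rests on 1 mouse, female by transcripts and low in muscle markers (19.1 FPKM summed), unlike most vehicle mice. There, tamoxifen cannot be told apart from differences between single mice, and sex and muscle content differ too.

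**Figure D3:**
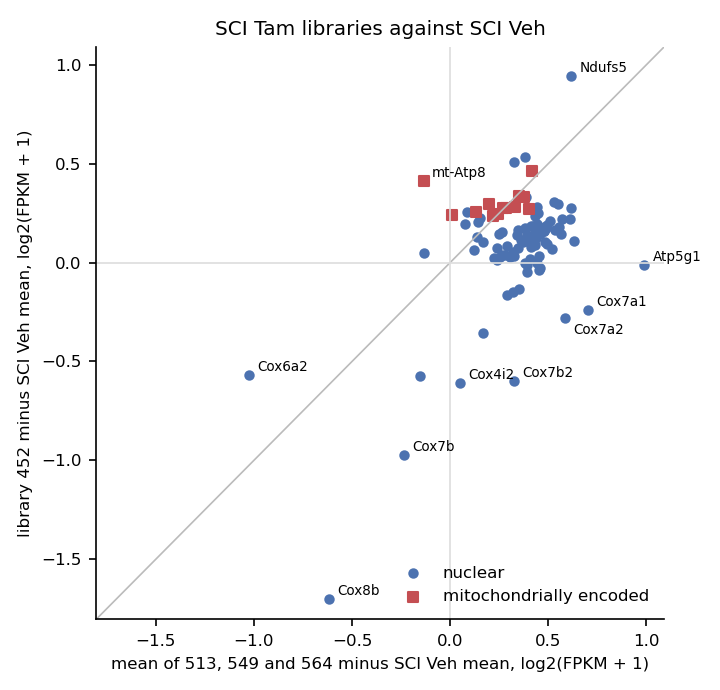
Each point is a gene, with its difference from the vehicle mean in log2(FPKM + 1) for the mean of libraries 513, 549 and 564 on the x axis and for library 452 on the y axis; both axes subtract the same vehicle mean, and the grey diagonal marks equal values. Most nuclear points lie below the diagonal at positive x, and the mitochondrially encoded points lie near or above it.

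In complex I, 17 of 35 nuclear subunits rose. For Ndufs1, whose values stand above, every tamoxifen library lay above every vehicle library (log2 0.35 ± 0.0654 SE, limma adjusted p = 0.0115), with a difference of 0.18 in 452 and 0.41 in the high series. Ndufv2 was at 105, 97.3, 103 and 99.1 FPKM in the uninjured libraries, 85.2, 85.5, 82.5 and 89.1 in the vehicle lesions and 97.7, 120.2, 110.1 and 134 in the tamoxifen lesions, with tamoxifen again wholly above vehicle lesions (log2 0.42 ± 0.0815 SE, limma adjusted p = 0.0145; 0.19 in 452). Ndufb6 rose too (log2 0.49 ± 0.091 SE, limma adjusted p = 0.0124; 0.30 in 452). Ndufs3 was at 24, 24.4, 21.9 and 22.7 FPKM in the uninjured libraries, 24.3, 20.9, 24.8 and 25.4 in the vehicle lesions and 34.3, 28.9, 30.0 and 31.3 in the tamoxifen lesions. Here 452 was the highest library, at 0.51 over the vehicle mean (log2 0.37 ± 0.0751 SE, limma adjusted p = 0.0165). By edgeR on the counts Ndufs3 was not called (0.22, adjusted p = 0.141), and 55% of the 31-base words of its transcript also occur in other genes. Ndufs4, an accessory subunit needed for assembly and known for its mutation in Leigh syndrome, was at 26.5, 28.3, 27.3 and 30.2 FPKM in the uninjured libraries, 27.5, 30.5, 27.7 and 30.1 in the vehicle lesions and 32.4, 42, 36.7 and 44 in the tamoxifen lesions (log2 0.40 ± 0.0893 SE, limma adjusted p = 0.0228; 0.16 in 452). Ndufv1 (log2 0.15, adjusted p = 0.197) and Ndufa3 (log2 0.33, adjusted p = 0.108) did not pass.

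In complex II, Sdhd was at 63, 57.8, 57 and 53.1 FPKM in the uninjured libraries, 59.5, 56.3, 56.7 and 53.3 in the vehicle lesions and 63.7, 76, 68.4 and 77.7 in the tamoxifen lesions, with tamoxifen lesions wholly above vehicle lesions (log2 0.33 ± 0.0742 SE, limma adjusted p = 0.0228; 0.17 in 452). Sdha overlapped between the lesion groups (log2 0.16, adjusted p = 0.12), as did Sdhb (log2 0.25, adjusted p = 0.0734) and Sdhc (log2 0.17, adjusted p = 0.375). In complex III, Uqcrc1 was at 131, 123, 118 and 127 FPKM in the uninjured libraries, 109.7, 115, 109.9 and 102 in the vehicle lesions and 122, 154, 139 and 163 in the tamoxifen lesions and rose (log2 0.40 ± 0.083 SE, limma adjusted p = 0.018; 0.16 in 452). Uqcrfs1 (log2 0.36, adjusted p = 0.0264), Uqcrq (log2 0.48, adjusted p = 0.029) and Uqcr10 (log2 0.29, adjusted p = 0.0459) rose too, while Uqcrb (log2 0.20, adjusted p = 0.314) and Uqcrh (log2 0.32, adjusted p = 0.0864) did not pass. In complex IV, Cox5a (log2 0.34, adjusted p = 0.0312), Cox5b (log2 0.40, adjusted p = 0.0343), Cox6c (log2 0.50, adjusted p = 0.0296) and Ndufa4 (log2 0.44, adjusted p = 0.0326) rose. Cox6c was at 226, 184, 176 and 201 FPKM in the uninjured libraries, 186, 183, 167 and 176 in the vehicle lesions and 192, 281, 251 and 298 in the tamoxifen lesions, with 452 the tamoxifen library nearest to the vehicle lesions. Cox7b, a small subunit, was at 207, 233, 195 and 204 FPKM in vehicle and 106, 188, 157 and 190.0 in tamoxifen lesions, with every tamoxifen library below every vehicle one and no call (log2 -0.42, adjusted p = 0.258). Cox6a1 (log2 0.29, adjusted p = 0.0975), Cox7a2 (log2 0.37, adjusted p = 0.179) and Cox8a (log2 0.20, adjusted p = 0.197) did not pass.

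The complex IV isoforms gave 0 calls of 7 in limma, with Cox8b and Cox6a2 at an unadjusted p under 0.05, and their median was -0.12. Cox6a2 (values above) was lower in 3 tamoxifen libraries than in any vehicle library, and 452 was at 4.89 beside 4.85 in vehicle library 428 (log2 -0.91, adjusted p = 0.126). Cox8b was at 2.22, 9.94, 4.52 and 4.79 FPKM in the uninjured libraries, 5.07, 4.7, 4.42 and 11.1 in the vehicle lesions and 1.12, 3.25, 3 and 4.34 in the tamoxifen lesions, with tamoxifen below vehicle lesions in all libraries (log2 -0.89, adjusted p = 0.144). The 13 tested muscle markers all had negative estimates in this comparison, 3 of them called lower, with a median of -2.59. Cox7a1 was at 18.1, 26.7, 18.3 and 21.5 FPKM in the uninjured libraries, 35.1, 28.5, 34.6 and 31.1 in the vehicle lesions and 27.1, 65.7, 65.9 and 34.3 in the tamoxifen lesions. Its high libraries were 513 and 549, where the summed muscle markers were 22.4 and 9.66 FPKM, and the groups overlapped (log2 0.47, adjusted p = 0.234). Cox4i2 (log2 -0.12, adjusted p = 0.661), Cox6b2 (log2 0.18, adjusted p = 0.53) and Ndufa4l2 (log2 -0.26, adjusted p = 0.386) did not pass.

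In complex V, 9 of 15 nuclear subunits rose. Atp5l, subunit g, was at 13.2, 14.1, 14.2 and 11.9 FPKM in the uninjured libraries, 14.4, 14.8, 13.5 and 14.7 in the vehicle lesions and 16.4, 19.7, 20.1 and 21.4 in the tamoxifen lesions, with tamoxifen wholly above both other groups (log2 0.41 ± 0.0846 SE, limma adjusted p = 0.0181; 0.18 in 452). Atp5f1, subunit b of the stalk, was at 73.1, 70.4, 70.3 and 73.8 FPKM in the uninjured libraries, 66.9, 66.1, 63.4 and 59.4 in the vehicle lesions and 71.7, 96, 86.3 and 97.2 in the tamoxifen lesions (log2 0.44 ± 0.0864 SE, limma adjusted p = 0.0146; 0.16 in 452), and Atp5j, a coupling factor, also rose (log2 0.36, adjusted p = 0.0239). Atp5a1 rose (log2 0.24, adjusted p = 0.0391) and Atp5b did not pass (log2 0.11, adjusted p = 0.433). Atp5g1 differed within the tamoxifen group: 452 was at 41.1 FPKM, inside the vehicle range of 33.8 to 48.3, and the high series at 93.3, 67.9 and 91.8 (log2 0.74, adjusted p = 0.0507). Atp5g2 did not pass (log2 0.28, adjusted p = 0.147).

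The mitochondrially encoded genes differed from the nuclear ones in how 452 behaved. All 13 were higher in 452 than in every vehicle library, and their median difference from the vehicle mean was 0.28 in 452 and 0.27 in the high series. mt-Nd1 was at 2537, 2206, 2161 and 2332 FPKM in the uninjured libraries, 2244, 2247, 1957 and 1945 in the vehicle lesions and 2638, 2632, 2636 and 2900.4 in the tamoxifen lesions, with tamoxifen above all 8 other libraries (log2 0.37 ± 0.0824 SE, limma adjusted p = 0.0231). mt-Nd3 was at 1842, 1422, 1431 and 1725 FPKM in the uninjured libraries, 1473, 1390.3, 1358 and 1285 in the vehicle lesions and 1895, 1850.2, 1739.9 and 1923 in the tamoxifen lesions (log2 0.43 ± 0.0924 SE, limma adjusted p = 0.0205), and mt-Co1, the catalytic subunit of complex IV, was at 4703, 3929.8, 3949 and 4234 FPKM in the uninjured libraries, 4001, 4255, 3816 and 3668 in the vehicle lesions and 4969, 4959.5, 4827 and 5273 in the tamoxifen lesions (log2 0.35 ± 0.0844 SE, limma adjusted p = 0.0287). For both, every tamoxifen library was higher than every vehicle library. mt-Nd2 (log2 0.27, adjusted p = 0.0363), mt-Nd4 (log2 0.28, adjusted p = 0.031), mt-Co3 (log2 0.37, adjusted p = 0.0357) and mt-Atp6 (log2 0.32, adjusted p = 0.0359) rose as well. With no filter on genes of low level, 0 of these 7 passed limma's test. The FPKM levels of mt-Nd3, mt-Co3 and mt-Atp6 are uncertain, since their counts outside the high series were few, as given above. mt-Cytb (log2 0.22, adjusted p = 0.0793), mt-Co2 (log2 0.24, adjusted p = 0.108), mt-Nd4l (log2 0.22, adjusted p = 0.119) and mt-Nd5 (log2 0.16, adjusted p = 0.14) had no overlap between the lesion groups and did not pass. mt-Nd6 (log2 0.07, adjusted p = 0.594), the gene on the light strand, and mt-Atp8 (log2 0.00, adjusted p = 0.997) had estimates close to 0. For mt-Atp8 452 stood apart at 3797 FPKM, and the high series at 2514, 2533 and 2758 lay within the vehicle range of 2427 to 3115. With the series term, 0 of the 13 were called, at a median of 0.28.

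**Figure D4:**
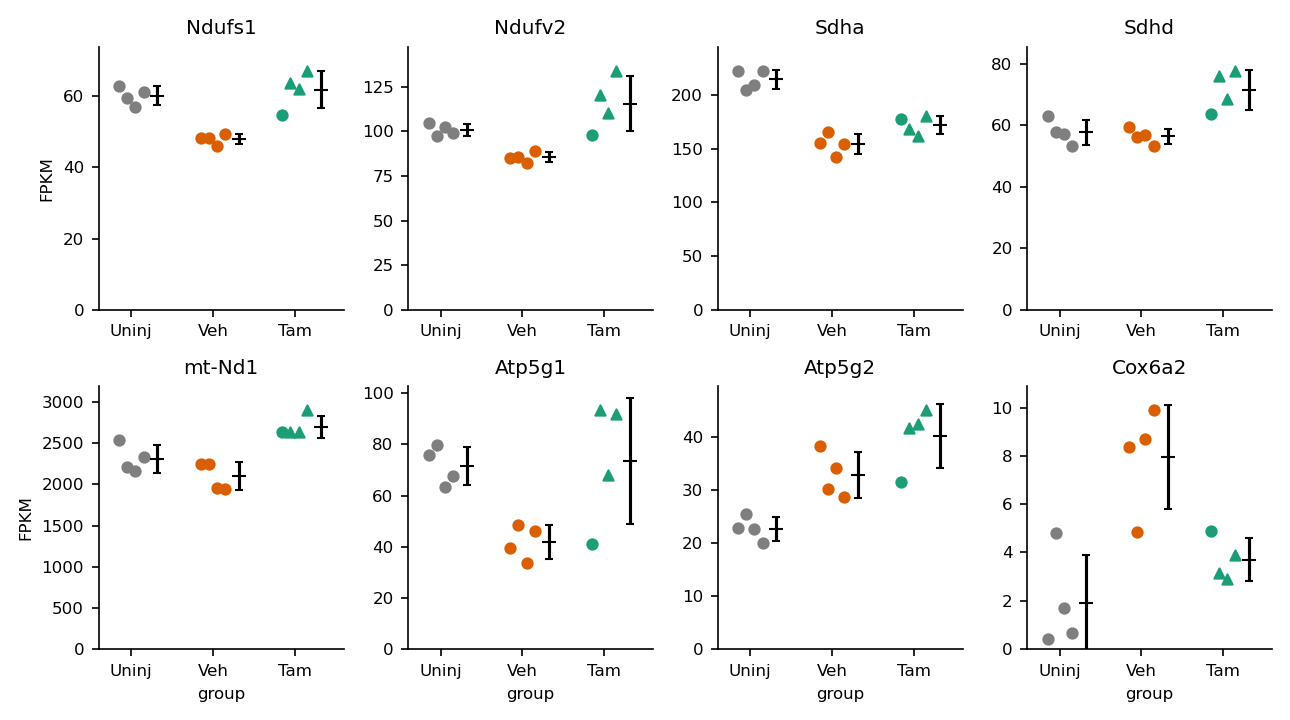
FPKM of 8 genes in the 4 libraries of each group (y axes start at 0); triangles are the libraries with sample names 106 to 108 and black bars mean ± SD (n = 4). Sdha is lower in all 8 lesion libraries, Atp5g2 is higher in all 8, mt-Nd1 is higher in all 4 tamoxifen libraries, and Atp5g1 in 452 (41.1) lies with the vehicle libraries.

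Tamoxifen lesions against uninjured cord, which share libraries with both comparisons above, gave 34 members higher and 2 lower in limma, against 24.1% and 20.5% of all genes. The median was 0.20 over members and 0.02 over all genes. Every tamoxifen library lay above every uninjured library for 22 members (background 20.7%) and below for 2 (background 18.1%). The 2 that fell were Sdha (log2 -0.32 ± 0.0615 SE, limma adjusted p = 0.00152) and Atp5b (log2 -0.25 ± 0.0862 SE, limma adjusted p = 0.0303), which were also lower in vehicle lesions. In complex II the other 3 subunits rose, Sdhb (log2 0.30, adjusted p = 0.0124), Sdhc (log2 0.35, adjusted p = 0.0376) and Sdhd (log2 0.30, adjusted p = 0.00616). Uqcrb (log2 0.65 ± 0.129 SE, limma adjusted p = 0.00168), Cox6b2 (log2 1.01 ± 0.173 SE, limma adjusted p = 0.000684), Atp5g2 (log2 0.79 ± 0.12 SE, limma adjusted p = 0.000322) and Cox7a2l (log2 0.44, adjusted p = 0.00184) were higher than uninjured cord in both lesion groups. Ndufs3 (log2 0.40, adjusted p = 0.00116), Ndufs4 (log2 0.44, adjusted p = 0.00184) and Atp5l (log2 0.50, adjusted p = 0.000618) rose with no overlap. Cox7a1 rose (log2 1.07, adjusted p = 0.00434), most in 513 and 549, and Cox6a2 did not pass (log2 0.92, adjusted p = 0.0586). Of the mitochondrially encoded genes, mt-Nd1 (log2 0.23, adjusted p = 0.0398), mt-Nd4 (log2 0.25, adjusted p = 0.0112), mt-Co1 (log2 0.26, adjusted p = 0.027), mt-Co3 (log2 0.39, adjusted p = 0.00645) and mt-Atp6 (log2 0.40, adjusted p = 0.00204) rose. For mt-Co3 and mt-Atp6 the uncertainty of their levels given above holds here too. The median over the 35 nuclear complex I subunits was 0.17. Ndufs1 (log2 0.04, adjusted p = 0.671), Ndufa9 (log2 -0.06, adjusted p = 0.456), Ndufv1 (log2 -0.13, adjusted p = 0.163), Ndufv2 (log2 0.18, adjusted p = 0.0836) and Ndufb6 (log2 0.17, adjusted p = 0.144) did not pass. With the series term 1 member, Ndufs3, was called higher (6.26% of all genes) and 2 lower (4.49%), Atp5g1 and Cox7a2. By edgeR on the counts Ndufs3 was close to 0 in this comparison (0.04, adjusted p = 0.763), and mt-Nd1 and Atp5b were not called.

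Other genes of the pathway were read from set lists. In vehicle lesions against uninjured cord, 9 of 16 tricarboxylic acid cycle genes fell and 1 rose, where 23.6% of all genes fell and 25.2% rose, shares against which each count of this comparison is to be read. Sucla2, the ATP-forming succinyl-CoA ligase subunit, fell (log2 -0.47 ± 0.0685 SE, limma adjusted p = 0.000158) and Suclg2, the GTP-forming one, rose (log2 0.59 ± 0.109 SE, limma adjusted p = 0.000814). Of the assembly factors, 4 of 9 tested for complex I fell, among them Ndufaf2 (log2 -0.57, adjusted p = 0.000804), and 8 of 18 for complexes II to V, among them the ATP synthase factors Atpaf1 (log2 -0.76, adjusted p = 0.000214) and Atpaf2 (log2 -0.57, adjusted p = 0.000914). Among 13 electron carrier genes, 2 fell and 1 rose, both below the share of all genes, with Coq9 of ubiquinone synthesis lower (log2 -0.50, adjusted p = 0.00137) and Etfa higher (log2 0.29, adjusted p = 0.0278). Of 17 genes of mitochondrial biogenesis, 3 fell and 2 rose, again below the share of all genes. The coactivators Ppargc1a (log2 -0.68, adjusted p = 9.33e-05) and Ppargc1b (log2 -0.87, adjusted p = 0.00106) were lower, and Yy1 (log2 0.22, adjusted p = 0.00634) and Gabpa (log2 0.37, adjusted p = 0.00844), whose binding words were searched above, higher. Nrf1 (log2 0.04, adjusted p = 0.804), whose word was searched too, and the GABP partner Gabpb1 (log2 0.10, adjusted p = 0.567) did not pass. Of 13 carrier and membrane proteins 7 fell, such as the fusion protein Opa1 (log2 -0.46, adjusted p = 5.01e-05). Glycolysis was mixed, with 10 of 22 lower and 5 higher: the lactate exporter Slc16a3 (log2 1.56, adjusted p = 4.16e-06) and hexokinase Hk2 (log2 1.71, adjusted p = 7.85e-06) rose, and the neuronal glucose transporter Slc2a3 fell (log2 -0.67, adjusted p = 4.78e-05). All 11 tested neuron markers fell in the same comparison, with a median of -0.89, and the 10 macrophage and microglia markers rose.

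In tamoxifen against vehicle lesions, where 4.27% of all genes were higher and 5.09% lower, 6 of the 16 tricarboxylic acid cycle genes rose, among them Dld (log2 0.26, adjusted p = 0.0123) and Sucla2 (log2 0.31, adjusted p = 0.0217), as did 4 of 13 carrier and membrane proteins, 3 of 22 glycolysis genes and 1 of 13 electron carriers, cytochrome c (Cycs, log2 0.41, adjusted p = 0.023). Of the assembly factors 0 of 9 and 0 of 18 were called higher by limma and 1, Lyrm7, lower (log2 -0.84, adjusted p = 0.0499). Of the biogenesis genes 0 of 17 were called higher and 1, Polg, lower (log2 -0.47, adjusted p = 0.045). With the series term, 0 genes of these 7 lists were called in either direction. Against uninjured cord, Ppargc1b (log2 -1.21, adjusted p = 0.000177) and Ppargc1a (log2 -0.60, adjusted p = 0.000314) were also lower in tamoxifen lesions, Suclg2 was higher (log2 0.69, adjusted p = 0.000444), and Slc16a3 was higher (log2 1.44, adjusted p = 2.18e-05). In that comparison, where 24.1% of all genes were higher and 20.5% lower, 3 cycle genes fell and 1 rose, 7 glycolysis genes rose and 4 fell, and 5 assembly factors of complexes II to V fell and 2 rose. The lists were 1 gene higher and 1 lower for carrier proteins, 3 and 1 for electron carriers, 1 and 3 for biogenesis, and 0 and 2 for complex I assembly.

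The deposited counts could not be used in place of FPKM for part of these genes. Of 93 members with at least 200 counts in total, 12 (12.9%) stepped between the high series and the 9 other libraries, that is, their ratio of count (scaled by library total) to FPKM shifted by more than 0.5 on the log2 scale with no overlap. Among all 15268 genes compared 3.27% did. Of 12 mitochondrially encoded genes 7 stepped. mt-Co2 had 25 to 76 counts in each of the 9 low-series libraries and 58155, 61671 and 62141 in 513, 549 and 564, while its FPKM were 4938, 4115, 3885 and 4368 in uninjured, 4371, 4369.6, 3949.9 and 3758 in vehicle and 4862, 4779.7, 4662 and 5161 in tamoxifen libraries. mt-Co3, mt-Nd3, mt-Nd4l, mt-Nd4, mt-Atp6 and mt-Co1 also stepped upward, and mt-Cytb, mt-Nd1, mt-Nd2, mt-Nd5 and mt-Nd6 did not. Nuclear members that stepped were Ndufb4, Atp5g2, Cox7b and the pseudogene row Atp5l-ps1 upward and Ndufb2 downward. Copies of mitochondrial sequence in the nuclear genome are annotated as separate genes. In GENCODE M21 transcripts, a median of 66.2% of the 31-base words of the 12 stepped members occurred in transcripts of other genes (7.11% to 100%), against 4.13% for the 81 others (0% to 55%). At least 10% was shared in 10 of the 12 and in 28 of the 81. Among stepped nuclear members the share was 7.11% for Cox7b, 7.19% for Ndufb2, 19.6% for Atp5g2, 38.3% for Ndufb4 and 68.4% for Atp5l-ps1. The part of shared words in the steps was not tested. For mt-Co2, 99.5% of the words were in the single nuclear gene model Gm28661, for mt-Co3 99.9% in Gm28437 and for mt-Nd1 none were in any other gene. By edgeR on the counts, 48 members were called higher in tamoxifen than in vehicle lesions (7.79% of all genes), among them mt-Co1, mt-Co3, mt-Nd3, mt-Nd4 and mt-Atp6, whose counts step upward in 513, 549 and 564. Leaving out the 12 stepped members, edgeR called 40 and limma 36 higher, with 30 shared. Of all members, the 7 called by limma alone were Atp5h, Atp5j2, Atp5l, Atp5o, Ndufb2, Ndufs3 and Uqcr10. In vehicle lesions against uninjured cord, Atp5g1, Ndufa12, Atp5g2 and Cox7a2l were called by limma and not by edgeR, and Atp5g2 had 3 to 14 counts in each of the 9 low-series libraries.

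**Figure D5:**
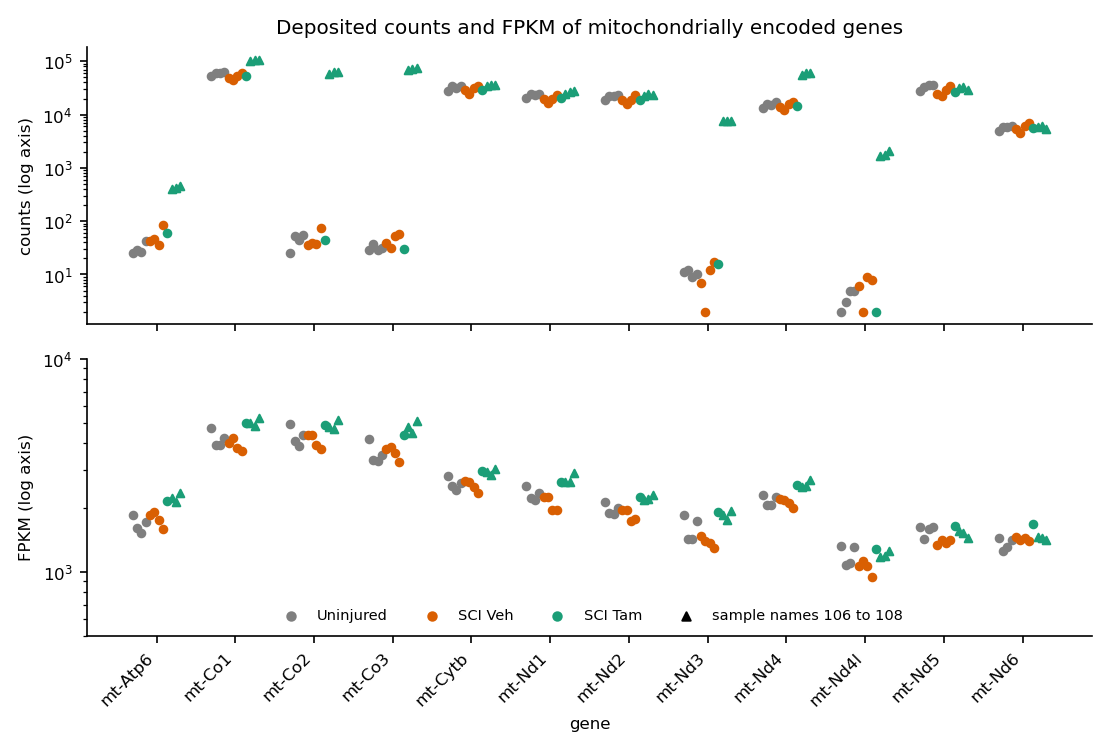
Counts (upper panel) and FPKM (lower panel), both on log axes, of the 12 mitochondrially encoded genes with enough counts, each point 1 library and the libraries of a gene side by side in group order. The triangles (sample names 106 to 108) stand far above the rest in counts of mt-Co2, mt-Co3, mt-Nd3 and mt-Nd4l, and within about the same range as the other libraries in FPKM.

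A few members varied strongly within groups, for which group means say little. Ndufs5, a complex I accessory subunit, was at 34.1, 29.4, 40.6 and 47 FPKM in the uninjured libraries, 42.9, 9.84, 43.7 and 6.59 in the vehicle lesions and 37.5, 11, 58.5 and 39.8 in the tamoxifen lesions. It was low in 428, 457 and 513, in 2 groups, and its counts there were 14, 11 and 25 against 74 to 178 elsewhere; 36% of its words are shared with BC002163. Cox7b was low in uninjured library 467 (133 FPKM against 250.05 to 301 in the other uninjured libraries) and in tamoxifen library 452 (106). Both genes stayed without a call in all 3 comparisons.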

How the data were processed

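The authors deposited 1 table of counts and 1 table of FPKM for the 12 libraries. Per the submitters' processing notes, TopHat, Picard, Cufflinks and HTSeq were used with the mouse genome mm9, and which tool made which table is not given in the sources used here. FPKM as deposited by the authors were the measure, tested as log2(FPKM + 1), with 8 genes dropped because 22 cells held no number. Genes with an FPKM of at least 1 in at least 4 libraries were fitted with limma 3.58.1 (R 4.3.3, trended variance, 3 group means, 9 residual degrees of freedom), with Benjamini-Hochberg adjustment across the 16058 genes tested and a threshold of 0.05. A log2 change on this scale understates the change of genes of low level. The counts deposited by the authors were tested with edgeR 4.0.16 (quasi-likelihood) and DESeq2 1.42.0 as alternatives. Groups came from the sample titles, and each library is 1 mouse, so p-values measure the spread between mice. Other alternatives were other filters and pseudocounts, a median-of-ratios rescaling, fits of 8 libraries, terms for sex, sample name series and muscle markers, and leaving out libraries. The scripts were tested on simulated data. Named members were all mitochondrially encoded genes, paired isoforms, the complex II subunits, the most abundant nuclear member of each complex and up to 3 members per complex, comparison and direction with the smallest p among those past the threshold; Ndufs5, Cox7b and some further members and list genes were named after their values were seen. The members and lists were chosen with earlier results of these data known. Promoter windows were RefSeq's, on GRCm38.p6, and no coordinate was converted between builds. The result of 1 gene is not reported here, and the counts over members include it.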

Additional observations from a re-analysis of the deposited data

Results flagged for a closer look

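Among 50 named members in 3 groups each (150 groups of 4 libraries), 4 groups held 1 library whose gap to its nearest neighbour took a larger share of the group's range than Dixon's 95% critical value allows. Chance flags about 1 in 20 groups. Cox4i2 in tamoxifen library 452 was low at 1.86 FPKM, against 3.36 to 3.67 in the other 3. Cox8b, a muscle form, in vehicle library 457 was high at 11.1 FPKM, against 4.42 to 5.07, and 457 also had the highest summed muscle markers (587 FPKM). mt-Nd1 in tamoxifen library 564 was high at 2900.4 FPKM, against 2632 to 2638. mt-Nd6 in tamoxifen library 452 was high at 1677 FPKM, against 1406 to 1448.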

How the results depend on the processing

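Shares over all genes are given above for the main fit and in part for the edgeR, sex and series fits. For the other settings below they are not given. Whether calls over all genes moved likewise there cannot be said. Counts of members called moved most for tamoxifen against vehicle lesions, where 43 were higher. That count was 16 with no filter, 9 in the fit of the 8 libraries compared, 1 with the sex term, and 0 with the sample name series term, with the muscle score as covariate, without the 5 libraries high in muscle transcripts, and without the 3 libraries of the high series, an alternative chosen after seeing the data. Leaving out 1 library gave 4 (without 513) to 64 (without 452), with 7 without 457, 8 without 564, 9 without 429 and 15 without 402. For members lower in that comparison, the 8-library fit gave 1, and leaving out 1 library gave 0 to 1 (without 377). For tamoxifen against uninjured, the 34 higher became 1 with the series term, 1 without the high series and 5 without the muscle-high libraries, and 23 to 52 (without 452) on leaving out 1 library; the 2 lower became 1 with no filter and 1 to 3 (without 564) on leaving out 1 library. For vehicle against uninjured, the 18 lower became 29 in the 8-library fit and without the high series, 0 without the muscle-high libraries, and 11 (without 376) to 24 (without 452 or 564) on leaving out 1 library. The 6 higher became 3 with the sex term, 1 without the muscle-high libraries, and 4 to 7 on leaving out 1 library. Leaving out the muscle-high libraries keeps 1 vehicle and 2 uninjured libraries, so calls lost there do not show that a result rests on those left out. Against uninjured cord, Atp5f1 (-0.0036), Cox6c (-0.0280) and Cox7a2 (-0.5103) had a negative change in tamoxifen lesions with the series term and without the high series, and mt-Atp8 had 2.1907 by DESeq2 on the counts, which were 0 to 4 in the 9 low-series libraries and 11, 7 and 16 in 513, 549 and 564. Apart from the fewer libraries or genes some of these settings use, the cause was not tested. With 4 mice a group, and 1 tamoxifen library in the low series, small changes could not be resolved. No paired analysis was possible because the groups share no replicate number.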
